A study of Mus musculus with 12 samples.

Results

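Nnat, Nap1l5, Mcts2 and the inner variant of Inpp5f are imprinted transcripts that lie inside a larger gene, and their methylation was read here together with that of their hosts Blcap, Herc3, H13 and Inpp5f itself. CpG sites were taken when they lay inside or within 2 kb of these 7 genes in the RefSeq gene table of mouse build GRCm38.p6. This gave 7 of the 25013 genes with at least 1 site, and 176 of the 421177 sites in the table, of which 139 had a value in all 12 samples. The series measured CpG methylation by reduced representation bisulfite sequencing (RRBS), in which MspI cuts at CCGG and bisulfite converts unmethylated cytosines. The DNA came from the left ventricle of 12 wild-type FVB/N offspring, 3 weeks old. Their mothers, FVB/NJ, ate either high-fat chow (HFD) or regular chow (RD), beginning at 6 weeks of age and kept up throughout, and were mated 8 weeks later with males on RD. There were 3 females and 3 males with HFD mothers, and 4 females and 2 males with RD mothers. Offspring were drawn at random from each mother at weaning, and how many mothers there were, or which animals were littermates, is not given in the sources used here. P-values therefore measure the spread between these animals, some of which may share a mother. Methylation of a mixture of cells was measured, so a change in the makeup of the tissue and a change within its cells cannot be told apart. The strain is inbred, and the maternal and paternal copies were not separated.

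An imprinted gene is expressed from the copy of 1 parent, and a differentially methylated region set in the germ line marks the silent copy. In all 4 transcripts the maternal copy carries that methylation and the paternal copy is expressed, so DNA with both copies gives an intermediate level at the region. Nnat encodes neuronatin, a small membrane proteolipid, and lies in an intron of Blcap. Mcts2 and Nap1l5 are retrogenes, intronless copies of genes elsewhere, that lie in introns of H13 (signal peptide peptidase) and Herc3 (a HECT-type ubiquitin ligase). Inpp5f encodes an inositol phosphatase, and its imprinted variant starts from a promoter deep inside the gene. Such an inner promoter can bear on how the host transcript is ended or processed, as is known for Mcts2 and H13.

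All 7 genes had sites, but not at the same kind of place. Nnat (chr2:157560078-157562525, plus strand) had 38 sites inside and 42 with the flanks, and Blcap (chr2:157556362-157566361, minus strand) had 70 and 78. Nap1l5 (chr6:58905233-58907126, minus strand) had 8 sites, all inside, and Herc3 (chr6:58831455-58920398, plus strand) had 31. Mcts2 (chr2:152687148-152687946, plus strand) had 0 sites inside and 12 upstream of its start. H13 (chr2:152669422-152708668, plus strand) had 31 inside and 34 with the flanks, and Inpp5f (chr7:128611181-128696436, plus strand) had 28 and 33. Imprinted sites were those of Nnat, Nap1l5 or Mcts2 with their flanks, and host sites were the remaining ones of Blcap, Herc3 and H13. For Inpp5f, sites more than 2 kb inside both ends were set against those within 2 kb of an end, all of which lay around the start, since the gene table has no entry of its own for the variant.

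The 250 bases before the listed start are printed for the 3 promoters that held at least 3 measured sites, because they show where the assay read an imprinted promoter and where it read a host promoter. Sequences are RefSeq's, build GRCm38.p6, written 5′ to 3′ along the gene, with the CpGs that had a value in capitals. They span chr2:152686898-152687147 (plus) for Mcts2, chr2:152669211-152669460 (plus) for H13 and chr2:157566362-157566611 (minus) for Blcap.
Mcts2: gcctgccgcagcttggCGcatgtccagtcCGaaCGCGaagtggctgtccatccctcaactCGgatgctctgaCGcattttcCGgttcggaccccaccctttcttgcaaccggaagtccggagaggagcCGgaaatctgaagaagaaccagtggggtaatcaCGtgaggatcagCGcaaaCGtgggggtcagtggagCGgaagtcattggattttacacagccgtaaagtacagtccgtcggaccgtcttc
H13: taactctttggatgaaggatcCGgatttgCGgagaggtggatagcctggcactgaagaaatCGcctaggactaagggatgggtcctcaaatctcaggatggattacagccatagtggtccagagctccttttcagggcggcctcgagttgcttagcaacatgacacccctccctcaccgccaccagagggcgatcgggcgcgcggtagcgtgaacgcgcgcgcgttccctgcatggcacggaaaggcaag
Blcap: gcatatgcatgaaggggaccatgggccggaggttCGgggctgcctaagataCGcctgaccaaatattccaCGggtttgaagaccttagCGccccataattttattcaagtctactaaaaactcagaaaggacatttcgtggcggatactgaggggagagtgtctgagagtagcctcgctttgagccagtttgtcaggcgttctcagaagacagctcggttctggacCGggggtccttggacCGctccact
The Mcts2 window held 20 CpGs, of which 12 were measured, and 4 CCGG cut sites. H13 held 18 CpGs with 3 measured, and Blcap 12 with 6 measured. The windows of Nnat and Nap1l5 held 12 and 10 CpGs and 0 measured ones, so those genes were read inside the transcribed part or farther upstream. TGCCGC, the core letters bound by the imprint-keeping factor ZFP57 when methylated, was searched on both strands from 250 bases before to 50 after the start. It occurred 1 time at Mcts2, beginning at position -247 from the start, 1 time at Nnat, 2 times at Nap1l5 and 0 times at Blcap, Herc3, H13 and Inpp5f. Of 32817 mouse promoter windows of 300 bases, 11.6% held these letters and 52.8% held CCGG. A match of letters shows no binding.

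The table gives rates and no read numbers, so a value carries no counting interval. The steps of the rates hold some information on depth, but depth was not estimated from them. Whether depth differed between the diets at Mcts2 was not tested. Each sample had values at 385299 to 417081 sites of the table and at 161 to 175 of the 176 sites described here. Library numbers in the labels ran through the HFD samples and then the RD samples, so library order and diet cannot be told apart. Mean methylation over 9031 autosomal 500 bp tiles of intermediate level (20 to 80%) was 57.2% ± 0.194 (SD) in the 6 HFD animals and 57.9% ± 0.515 (SD) in the 6 RD animals, a difference of -0.748 percentage points (two-sided exact permutation test within sexes, p = 0.00571).

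The upstream region of Mcts2 had less methylation in the HFD offspring than in the RD offspring at every one of its 12 measured sites. Averaged over the 12 sites, the level was 37.3, 46.3 and 39.5% in HFD females 2, 3 and 4 and 48.0, 36.5 and 42.7% in HFD males 2, 3 and 4. It was 84.2, 89.8 and 70.1% in RD females 1, 2 and 4 and 76.7 and 95.7% in RD males 1 and 2. RD female 3 had no value at any of these sites. The groups did not overlap: the highest HFD animal lay below the lowest RD animal, in both sexes. HFD animals averaged 41.7% ± 4.77 (SD, n = 6) and RD animals 83.3% ± 10.2 (SD, n = 5), a difference of -41.6 percentage points. An exact permutation test within sexes gave p = 0.005 (two-sided), the smallest p that its 200 arrangements allow, and 1 such test was made at each of the 4 loci. Females had 41.0% against 81.3% and males 42.4% against 86.2%. The HFD mean of 41.7% was an intermediate level, as described above for DNA with both copies. The RD mean of 83.3% lay nearer to full methylation, with RD male 2 at 95.7%. The difference alone therefore does not show a loss from the usual level with HFD. Which diet group departed from the usual level of this region was not tested.

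**Figure D1:**
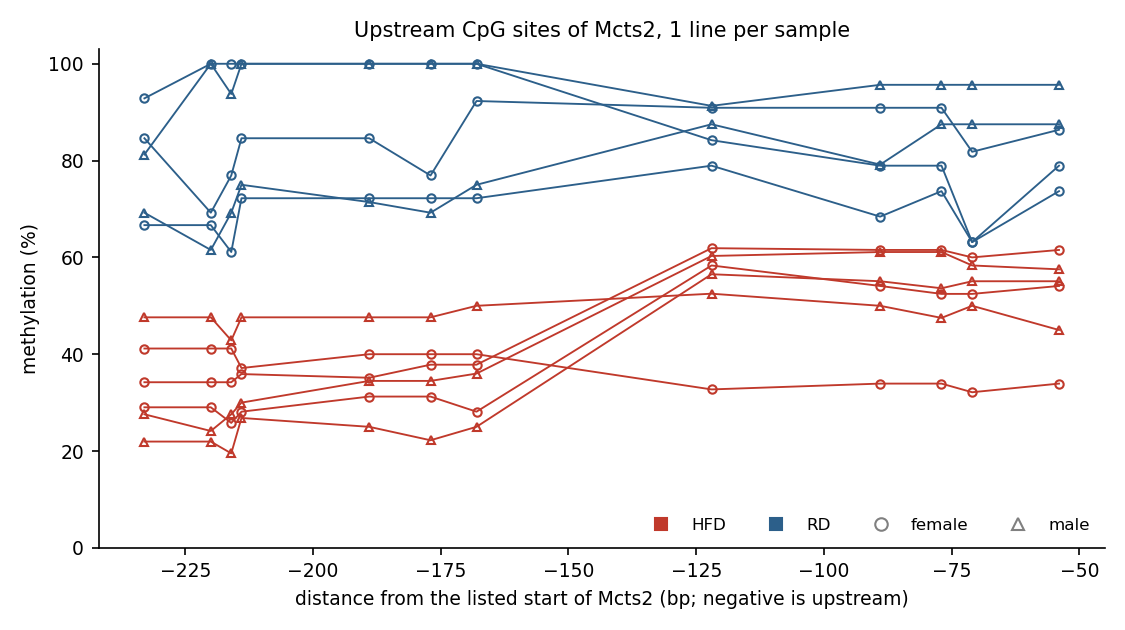
Methylation (%) of the 12 CpG sites upstream of Mcts2 against distance from the listed start (bp, negative upstream), with 1 line per sample, red for HFD and blue for RD, circles for females and triangles for males. All 6 HFD lines lie below all 5 RD lines at each site, and 5 of the 6 HFD animals have the lower mean at the 7 outer sites.

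Along the promoter the 12 sites fell into an outer group of 7 and an inner group of 5. The outer group, at positions -233 to -168 from the start (chr2:152686915-152686980), had 34.3% ± 8.59 (SD) in the 6 HFD animals and 83.2% ± 14.1 (SD) in the 5 RD animals. The inner group, at positions -122 to -54 (chr2:152687026-152687094), had 52.1% ± 10.2 (SD, n = 6) and 83.4% ± 9.23 (SD, n = 5). The outer group was the lower one in 5 of 6 HFD animals and in 3 of 5 RD animals; HFD female 2, with 40.1% outside and 33.3% inside, was the exception in HFD. The largest difference of a single site was at chr2:152686934, position -214, with 34.3% ± 7.75 in HFD and 86.4% ± 13.3 in RD. The smallest was at chr2:152687077, position -71, with 51.3% ± 10.1 and 78.3% ± 14.6. Neighbouring sites of a fragment are read together, so the 12 sites are not 12 independent measurements. HFD stayed wholly below RD at 12 of these 12 sites, against 0.384% of the sites tested across the table with missing values allowed, and at 0 of the remaining sites of the 7 genes.

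No site of Mcts2 had a value in all 12 samples, so the gene was absent from the test that required this, and it was tested where missing values were allowed (at least 8 samples, every group represented). Among 15114 gene regions, each a gene with 2 kb on both sides, 0.0728% passed an adjusted p of 0.05 for diet, and Mcts2 was 1 of these 11 regions (limma, difference of -41.6 percentage points, adjusted p = 0.0394). Its absolute difference ranked 1 among the 15114 and its p-value 11. HFD lay wholly below RD in 0.384% of these regions. The call was not a stable one: with 1 of the 12 samples left out in turn the difference stayed between -44.9 and -38.5 points, and limma's adjusted p stayed under 0.05 without RD female 4 (0.0305) and without RD male 1 (0.0479). It rose above the threshold on leaving out each of the other 10 samples, which were HFD females 2, 3 and 4, HFD males 2, 3 and 4, RD females 1, 2 and 3 and RD male 2 (0.0720 to 0.151), and with a smaller offset in the log ratio (0.0968). RD female 3 had no value at Mcts2, so leaving it out kept the Mcts2 values and moved the adjusted p only through the other regions. Tested as 500 bp tiles, which split the 12 sites, neither group passed (limma adjusted p = 0.115 for the outer and 0.113 for the inner sites).

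The host H13 had nearly the same mean in both diets. Over its 22 host sites the mean was 22.6% ± 3.95 (SD) in the 6 HFD animals and 22.5% ± 5.34 (SD) in the 6 RD animals, and RD male 2 stood above the other RD animals. Over the 15 host sites with values in all samples the means were 28.0% ± 3.18 (SD) with HFD and 31.2% ± 4.59 (SD) with RD. Mcts2 minus H13, taken within each animal, was 19.1 points ± 5.27 (SD) in the 6 HFD animals and 60.4 ± 6.12 (SD) in the 5 RD animals, a difference of -41.3 (two-sided exact permutation test within sexes, p = 0.005, the smallest possible). Without RD male 2 it was -40.7 (exact permutation test, p = 0.0125, again the smallest possible). The H13 start was low: the 3 sites at positions -229 to -189, in capitals in the printed sequence, read 0 to 3.70% in 8 of the 10 samples that had a value, 26.7% in HFD male 2 and 12.97% in RD male 2. At 5 sites 351 to 407 bases downstream of that start (chr2:152669812-152669868), all 6 RD animals read 0% at the sites where they had a value, which for RD male 2 were 2 of the 5. HFD females 2, 3 and 4 read 25.2, 6.16 and 6.16% there and HFD males 2, 3 and 4 read 16.3, 0 and 5.45%, so the groups met at 0. Toward the other end of H13, 36840 to 36875 bases from its start (chr2:152706301-152706336), 4 sites had an intermediate level of 48.8% ± 5.97 (SD) in the 6 HFD animals and 60.6% ± 8.93 (SD) in the 6 RD animals. HFD animals had a lowest, median and highest value of 41.5, 50.0 and 55.5% and RD animals of 51.4, 57.7 and 72.8%, so that the ranges overlapped (limma, adjusted p = 0.434).

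Nnat had the most measured sites of the 4 imprinted transcripts, and its level did not separate the diets. All 42 sites were intermediate, with site means of 43.0 to 69.9%. Over the 36 sites with values in all samples HFD animals had 50.1, 53.5 and 57.4% as lowest, median and highest and RD animals 50.3, 53.8 and 57.5%. The means were 53.3% ± 2.47 (SD, n = 6) and 53.7% ± 2.62 (SD, n = 6), a difference of -0.355 points (two-sided exact permutation test within sexes, p = 0.783). The sites formed 4 runs with different levels. The 4 sites at positions -1831 to -1774 had 62.8% in HFD and 66.3% in RD, and the 13 sites from 20 to 197 bases after the start had 58.6 and 55.0%. The 9 sites from 340 to 400 bases had 42.9 and 48.3%, and the 16 sites from 1366 to 1700 bases had 51.8 and 51.7%. HFD had the higher mean in the second run and the lower mean in the first and the third, and 23 of the 42 sites were higher and 19 lower in HFD. The site of the smallest p at this locus was chr2:157561657, inside Nnat (69.3% with HFD, 56.7% with RD, adjusted p = 0.751 by limma).

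Blcap showed 3 levels along its length. Its own start, read at 24 sites at positions -24 to 184, was nearly free of methylation, with 1.88% ± 1.45 (SD) in the 6 HFD animals and 2.09% ± 2.74 (SD) in the 6 RD animals. The 4 sites at positions -216 to -162 had values in 10 samples: RD male 2 read 35.7% and the other 5 RD animals 0%, while the 4 HFD animals with a value read 0, 11.8, 21.7 and 28.6%. Between Nnat and the far end, the 6 sites at chr2:157557854-157557940 had 75.1% ± 3.03 (SD) in the 6 HFD animals and 76.2% ± 4.56 (SD) in the 6 RD animals. A pair of sites beyond the gene's end, chr2:157554760-157554784, read 34.0 and 32.2%. The ranges of HFD and RD overlapped in each of these runs.

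Nap1l5 was read at 8 sites from 357 to 492 bases after its start, and its values were widely spread: the SD over all 12 animals was 9.75 points, against 2.44 for Nnat, a mean over more sites. HFD animals had 35.7, 55.5 and 61.3% as lowest, median and highest, and RD animals 38.4, 43.9 and 63.3%. HFD female 2 held the lowest value of all and RD female 3 the highest, each against the direction of its group's mean. The means were 53.3% ± 9.69 (SD) in the 6 HFD animals and 46.4% ± 9.33 (SD) in the 6 RD animals, a difference of 6.84 points in the opposite direction to Mcts2 (two-sided exact permutation test within sexes, p = 0.263). On limma's log2 ratio scale the difference was 0.37 ± 0.28 (SE). In Herc3 the 12 sites at chr6:58831739-58831807 read 3.19% ± 3.61 (SD) in the 6 HFD animals and 2.52% ± 2.64 (SD) in the 6 RD animals. Farther inside, 4 sites at chr6:58880375-58880435 were highly methylated, with 91.5% ± 2.97 (SD, n = 6) and 87.3% ± 4.36 (SD, n = 6), and ranges of 88.2 to 96.5% and 82.0 to 91.7% (limma, adjusted p = 0.599). The site of the smallest p at this locus was chr6:58880375 in Herc3 (87.6% with HFD, 79.7% with RD, adjusted p = 0.777 by limma). Next to this run a pair of sites read 96.7 and 96.9%.

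Inpp5f had a methylated inner stretch and a start of low methylation. The 9 inner sites, 76683 to 76982 bases downstream of the listed start (chr7:128688048-128688347), all had means over both diets of 34.1 to 41.1%, the lowest of the 4 imprinted transcripts. In HFD alone the outer sites of Mcts2 read as low. Over the 7 sites with values in all samples HFD animals had 31.8, 34.4 and 50.9% as lowest, median and highest, and RD animals 29.7, 36.8 and 39.5%. HFD male 4 was the animal at 50.9%. The means were 37.3% ± 7.31 (SD, n = 6) and 35.9% ± 4.04 (SD, n = 6), a difference of 1.41 points (two-sided exact permutation test within sexes, p = 0.760). Without HFD male 4 the sign turned, to -1.30 points. The 24 host sites, at positions -376 to 706 around the start and with means of 0.449 to 14.0%, gave 2.25% ± 1.15 (SD) in the 6 HFD animals and 3.13% ± 2.05 (SD) in the 6 RD animals over the 23 with values in all samples. The highest animal there was RD male 2, at 7.03%. Right after the start, 15 sites at positions 18 to 194 read 0 to 1.46% in HFD animals and 0.465 to 6.82% in RD animals. A pair of sites at positions 510 and 558 (chr7:128611875-128611923) read 13.1% ± 7.95 (SD) with HFD and 8.32% ± 4.48 (SD) with RD, and their ranges overlapped, with highest values of 23.6 and 15.9%. The former, chr7:128611875, was the site of the smallest p at this locus (10.5% with HFD, 4.45% with RD, adjusted p = 0.762 by limma).

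**Figure D2:**
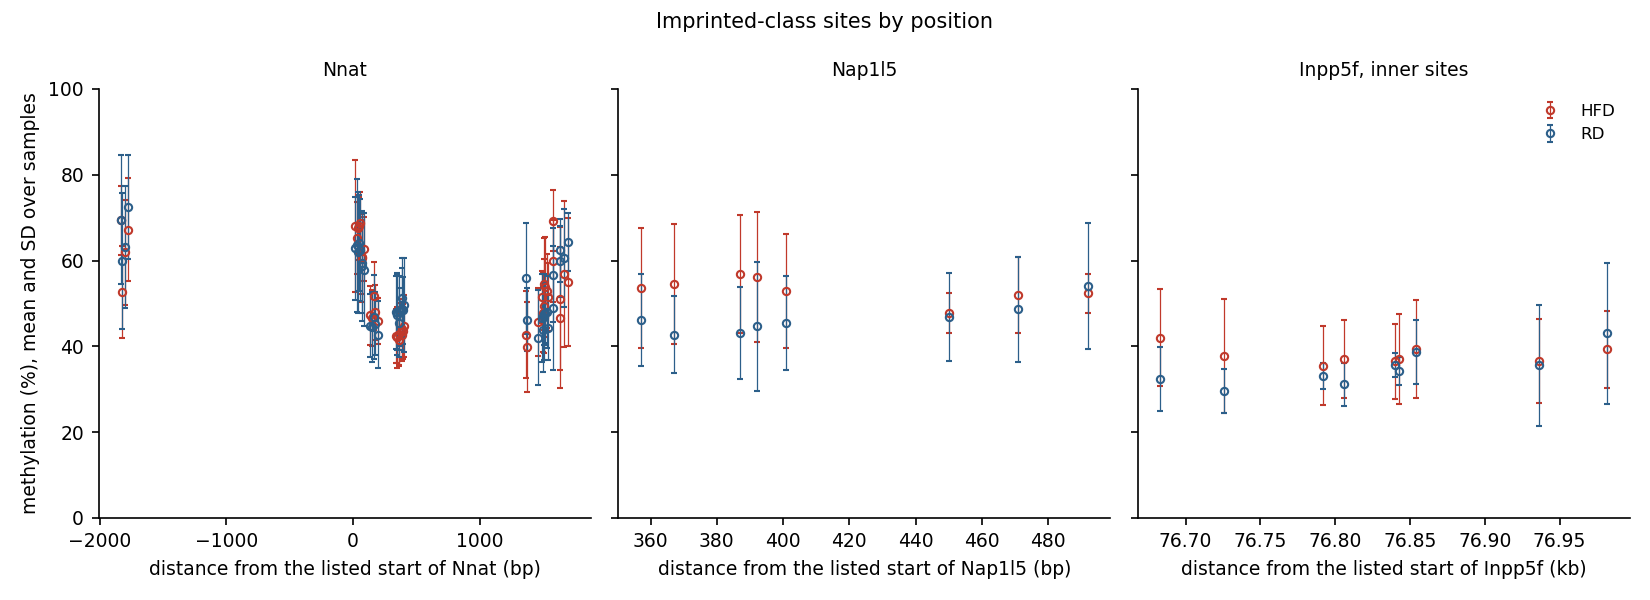
Methylation (%) of each imprinted site of Nnat, Nap1l5 and Inpp5f against distance from the listed start of the gene (bp, or kb for Inpp5f). Points are means and bars SDs over the HFD (red) and RD (blue) samples, and the bars of the diets overlap at all 59 sites, and site means over all samples run from 34.1 to 69.9%.

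The mean over imprinted sites stood above the mean over host sites at all 4 loci and in every animal measured. Nnat had 53.5% against 19.6% in Blcap, a difference of 34.0 points that ranged from 31.7 to 39.6 over the 12 animals. Nap1l5 had 49.9% against 28.1% in Herc3, a difference of 21.7 that ranged from 7.83 to 36.1. The inner sites of Inpp5f had 36.6% against 2.69% around its start, where all its host sites lie, a difference of 33.9. Each of these 3 gave p = 0.000488 in an exact sign-flip permutation test over 12 animals (two-sided), the smallest p possible. Mcts2 had 60.6% against 22.8% in H13, a difference of 37.9 over 11 animals (exact sign-flip permutation test, two-sided, p = 0.000977, the smallest possible). A mean over host sites mixes unmethylated starts with methylated gene bodies: of the host sites, 28 of 36 at Blcap, 17 of 23 at Herc3, 15 of 22 at H13 and 24 of 24 at Inpp5f had a mean under 20%, and 3, 6, 1 and 0 had a mean above 80%. The sign-flip p was therefore largely set by which host sites were read. Single host runs stood above the imprinted mean, with 75.6% at chr2:157557854-157557940 in Blcap and 89.4 and 96.8% in Herc3. The remaining runs of Blcap and Herc3 stood below it. All imprinted sites had a mean over both diets of 20 to 80%, which at Mcts2 joins an HFD mean of 41.7% with an RD mean of 83.3%.

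**Figure D3:**
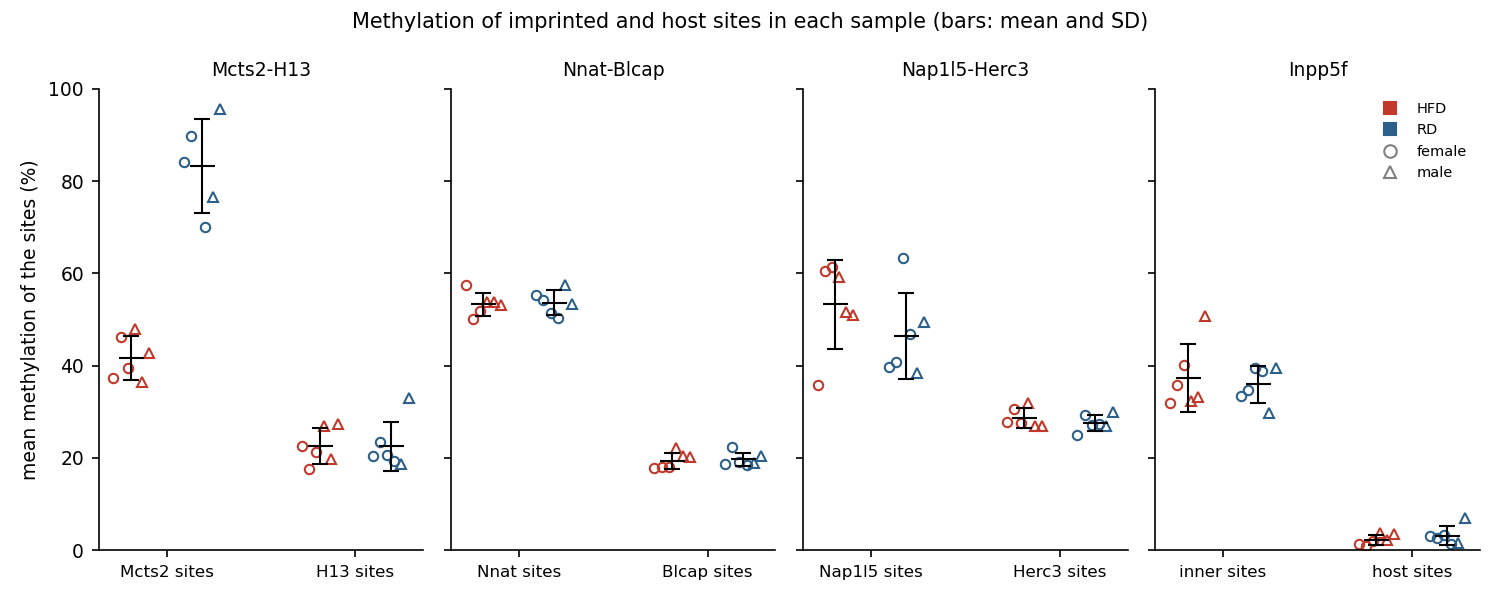
Mean methylation (%) of imprinted and host sites in each sample at the 4 loci, HFD in red and RD in blue, circles for females and triangles for males, with bars for mean and SD. Mcts2 separates the diets (36.5 to 48.0% in HFD, 70.1 to 95.7% in RD), and the diets overlap in the 7 other columns.

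Setting the loci against each other, Mcts2 differed between the diets by more than each of the other 3 imprinted transcripts. Taken within each animal, the HFD minus RD difference of Mcts2 minus Nnat was -40.8 points, that of Mcts2 minus Nap1l5 -51.8 and that of Mcts2 minus Inpp5f -43.7 (two-sided exact permutation test within sexes, p = 0.005 for each, the smallest possible, among 5 such comparisons chosen after the values were seen). Imprinted minus host, taken the same way, gave a diet difference of -0.0937 points at Nnat (p = 0.971), 5.74 at Nap1l5 (p = 0.306) and 2.29 at Inpp5f (p = 0.611), by exact permutation tests within sexes.

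**Figure D4:**
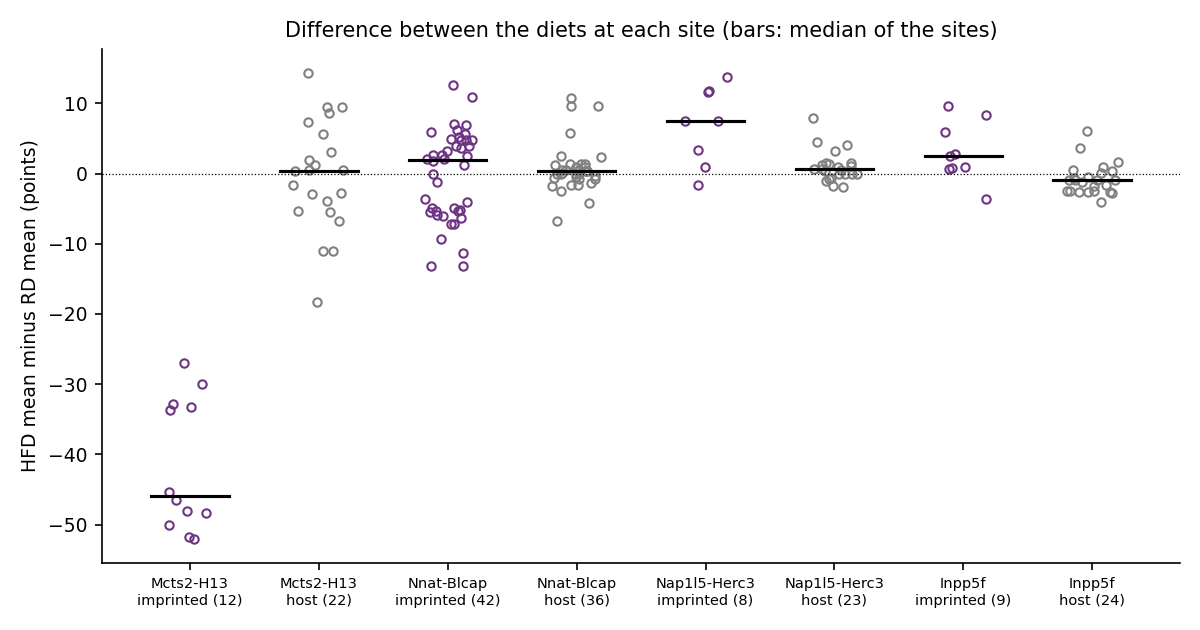
HFD mean minus RD mean (percentage points) at each site, imprinted sites in purple and host sites in grey, with the number of sites under each column and a bar at the median. The 12 Mcts2 sites lie between -52.1 and -26.9, and the sites of the other columns lie on both sides of 0.

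Read off the fits across the whole table, the members other than Mcts2 held no call for diet. Of 23791 tiles with values in all 12 samples 0.0294% passed limma's adjusted p of 0.05, and 0 of the 9 tiles at these genes did. An unadjusted p under 0.05 was reached by 3 of the 9, against 7.81% of all tiles; these were the H13 tile at 36840 bases, a further H13 tile at chr2:152707570-152707624 (4.06% ± 1.83 in HFD, 8.14% ± 3.79 in RD, adjusted p = 0.532) and the Herc3 tile at chr6:58880375-58880435. Of the 79 single sites tested here 0 passed, against 0.0102% of 157523. The smallest p was at chr2:152706327 in H13, where HFD had 48.4% and RD 66.8% (limma, adjusted p = 0.490). Of 6 gene regions tested 0 passed, against 0.124% of 12925. Split by sex, the Nnat mean was 53.1% with HFD and 52.9% with RD in females and 53.6 and 55.4% in males. The Nap1l5 mean was 52.6 and 47.7% in females and 54.0 and 43.9% in males, and that of the inner Inpp5f sites 35.9 and 36.6% in females and 38.8 and 34.6% in males. Sex was called at 0 of the 9 tiles, against 0.0168% of all tiles, and diet by sex at 0 of the 9, against 0% of all tiles. With 2 to 4 animals per sex and diet, no dependence of the diet effect on sex was detectable at these genes, which does not show that there is none.

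Other imprinted genes gave a background for Mcts2. Zrsr1, which lies in an intron of Commd1, had 59.1% ± 3.53 (SD) in the 6 HFD animals and 72.1% ± 2.73 (SD) in the 6 RD animals over 51 sites, and the host sites of Commd1 had 0.911 and 0.808%. Peg13, a non-coding RNA gene inside Trappc9, had 58.3% ± 3.94 (SD, n = 6) and 78.1% ± 1.55 (SD, n = 6) over 15 sites, and the host sites had 70.3 and 70.7%. At both, all HFD animals were below all RD animals. The diet difference of Mcts2 was larger by 28.8 points than that of Zrsr1 and by 22.3 points than that of Peg13 (exact permutation tests within sexes, two-sided, p = 0.005 and p = 0.010). Both were among the 5 comparisons chosen after the values were seen, with Mcts2 already ranked 1 by absolute difference, so these p-values are descriptive. Mcts2, Zrsr1 and Peg13 thus had lower levels with HFD at the imprinted gene and overlapping values at the host, while Nnat, Nap1l5 and the inner sites of Inpp5f had values that overlapped between the diets.

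Of 19 further genes with a germline methylated region, Zrsr1 and Peg13 included, 17 had a testable region with missing values allowed. Of these, 16 had the lower mean in HFD and 3 passed limma's test, all lower (Peg13, Impact and Zrsr1), and the median difference was -9.21 points. Over all 15114 regions, 58.9% had the lower mean in HFD, 0.0728% passed, and the median difference was -0.433. The list was drawn up with earlier results of these samples known and is not independent evidence of that direction. Of 9 genes that write or keep imprints (Zfp57, Zfp445, Trim28, Dnmt1, Uhrf1, Setdb1, Dnmt3a, Dnmt3l and Dppa3), 9 had a region, 0 passed, and the median difference was 0.981. Methylation gives no level of expression, so marker genes could not be used to check the tissue label. Among regions of endothelial marker genes, 4 of 5 had values, all 4 lower in HFD (against 58.9% of all regions), with a mean over the list of 36.0 to 41.2% in HFD and 42.6 to 48.4% in RD with missing values allowed, and 0 passed; with values required in all samples Pecam1, an endothelial adhesion molecule, passed (39.4 against 49.2%, limma adjusted p = 0.0377). Lists for cardiomyocytes (7 of 8 with a region, 6 of 7 lower in HFD, median difference -2.75 points), fibroblasts (4 of 5, 2 of 4 lower, -0.28), immune cells (2 of 4, 2 of 2 lower, -2.24) and smooth muscle (2 of 3, 2 of 2 lower, -1.67) held 0 calls, and their ranges overlapped. The ranges of the endothelial mean did not overlap between the diets, with a median difference of -7.84 points over its regions, and its part in the Mcts2 difference was not tested.

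The regions whose values followed an imprinted mean most closely across animals were listed as a description, with no p, from 6141 to 6143 regions of at least 5 sites and intermediate level. For Mcts2 these were Impact, an imprinted gene (Pearson's r = 0.981 over 11 animals), and Mindy4 (0.953), and both also had a lower mean in HFD (54.8 against 85.7%, and 50.8 against 67.3%), so that these r values join the 2 diet groups. For Nnat they were Zfp408 (0.898) and 2210420H20Rik (0.884), for Nap1l5 Tm7sf3 (0.818) and Emp3 (0.793), and for Inpp5f Faf2 (0.879) and Nup133 (0.804), each over 12 animals.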

How the data were processed

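Methylation was measured by RRBS in 12 left ventricles. The authors deposited 1 table of percent methylation per CpG site and sample, per the file headers. The submitters' processing notes name FastQC, Trim Galore, Bismark 0.19, limma and build mm10; a coverage minimum is not given in the sources used here. No read counts were used, since the table has percentages only. Of 45418 positions inside RefSeq promoter windows, 99.98% fell on a CpG of GRCm38.p6. Columns of no sample numbered 0.

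Samples were grouped by diet and sex from the labels. Rates were turned into log2((rate + 0.05)/(1 − rate + 0.05)) and fitted with limma 3.58.1 (R 4.3.3), with diet and sex as terms, on autosomal sites, on 500 bp tiles and on gene regions of at least 3 sites, with a mean rate of 5 to 95%. Values in all 12 samples were required, or, as an alternative, in at least 8. Two-sided p-values were adjusted by Benjamini-Hochberg over all features of the table (threshold 0.05). Locus means were compared by exact permutation within sexes (350 arrangements, or 200 without RD female 3), and imprinted with host sites by exact sign flips. Sites up to 100 bp apart formed a run. The tests were checked on simulated data.

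The members, gene lists and tests were chosen with earlier results of these data known. The text names all 7 members, tiles of intermediate level, per locus the site with the smallest diet p, the 2 most similar regions, and Zrsr1 and Peg13; the remaining genes of the lists are given as counts, except those that passed. Alternatives on top of missing values, and the comparisons of Mcts2 with other imprinted genes, were added after the data had been seen. Figures were drawn with matplotlib 3.10.9.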

Additional observations from a re-analysis of the deposited data

Results flagged for a closer look

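In 8 of 53 groups of 4 to 6 samples, 1 sample lay apart from the rest of its diet by Dixon's criterion. Chance would give about 1 in 20, or 2.65 groups, if the groups were independent and normally distributed. Here class means share sites with their runs and flagged groups lay near 0%, so the excess over that number cannot be judged. In 6 of these the sample was RD male 2, each time as the highest RD sample at host sites; the H13 host mean among them joins sites of low and of high level. It read 32.9% for the H13 host mean (18.6 to 23.4% in the other RD samples), 7.03% for the Inpp5f host mean (1.33 to 3.18%), 2.22% at the Inpp5f run from chr7:128610989 (0.391 to 0.810%), 12.97% at the H13 run from chr2:152669232 (0 to 3.70%), 6.06% at the Herc3 run from chr6:58831982 (0 to 1.90%) and 35.7% at the Blcap run from chr2:157566523 (0% in the others). HFD male 2 was the highest HFD sample at the Inpp5f run from chr7:128611383, with 1.46% (0 to 0.496% in the others), and at the H13 run from chr2:152669232, with 26.7% (0% in the others). Over 13176 tiles with a mean under 5%, RD male 2 averaged 2.32%, within the range of 1.38 to 2.61% over all 12 samples, and so did HFD male 2.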

How the results depend on the processing

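Nnat and Inpp5f have diet differences close to 0, and their sign moved with the processing. The Nnat mean differed by 0.0306 points with a 1 kb flank, 0.349 with the median of sites and 0.393 when samples were centred on intermediate tiles, and Nnat minus host by 0.676 with a 1 kb flank. Leaving out each replicate in turn gave -1.17 to 0.405 for the Nnat mean, -1.21 to 0.814 for Nnat minus host, -1.30 to 2.51 for the Inpp5f mean and -0.180 to 3.59 for Inpp5f minus host. It gave -1.33 to 1.89 for the Nnat tile from chr2:157560098, -0.927 to 4.48 for that from chr2:157561589 and -1.30 to 3.70 for the Inpp5f tile, none of them called. The values above 0 at the former were 1.37 without HFD female 3, 0.671 without HFD male 3, 1.89 without RD female 1 and 0.594 without RD male 1, and those below 0 at the latter included -0.881 and, with missing values allowed, -0.615 without RD female 1.

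Member calls for diet numbered 0 except at Mcts2. With missing values allowed 1 gene region was called, also with trend and robust variance (limma adjusted p = 0.0428) and with untransformed rates (adjusted p = 0.00717); untransformed rates also called 1 tile and 5 sites. With an offset of 0.01 the count was 0 (adjusted p = 0.0968), and leaving out each replicate gave 0 to 1. Without each replicate the Mcts2 difference was -44.9 to -38.5 points; because the groups did not overlap, the exact p (0.005 to 0.0167) was then set by the number of arrangements and says nothing about stability.

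Replicate numbers did not pair the samples: over 13 same-number pairs the correlation of deviations was -0.0328 to 0.0256, with 0 pairs above 0.1. With the replicate block 0 member tiles, sites or regions were called, and Mcts2 had an adjusted p of 0.397. Under the remaining alternatives no member call was gained or lost. The lower mean in HFD was found in 4 of 6 gene regions with values in all samples and in 3 of 7 with missing values allowed, Mcts2 included. Between these site sets the host difference went from -0.261 to 1.01 points at Blcap and from -3.16 to 0.102 at H13. An alternative minimum of 20 reads per site, chosen for this re-analysis, was not run, because the table holds no coverage. Depth was not estimated, and Mcts2 rests on 12 neighbouring sites of 11 animals.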
